A study of Mus musculus with 37 samples.

Results

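A set of 10 genes that mark the deep layers of the mouse cerebral cortex were described across 21 cortex RNA-seq libraries. The genes were Tle4, Fezf2, Bcl11b, Tbr1, Nxph4, Cplx3, Rprm, Syt6, Etv1 and Crym. They were chosen by name, with earlier results of these data known, and matched by Ensembl identifier through GENCODE M21. They make up 10 of the 55536 genes in the cortex count table. The study asked what loss of TMEM106B, a lysosomal membrane protein, and the Q331K substitution in TDP-43, an RNA-binding protein linked to amyotrophic lateral sclerosis and frontotemporal dementia, do to gene expression in brain and liver. All libraries were total RNA of mice labelled 10 months old. The cortex set held 5 wild-type (WT) libraries, 6 of the TDP-43Q331K knock-in, 5 of TMEM106B-/- and 5 that carry both changes, TMEM106B-/-TDP-43Q331K, called the combined genotype here. Strain and sex are not in the labels used here. The labels do not say whether the libraries of a group came from separate animals, so p-values measure the spread between these libraries only. They also give no treatment and no borders for the dissected cortex.

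The cerebral cortex is built of layers of excitatory neurons with different targets. Layer 5 neurons project to the brainstem, the spinal cord and the striatum, layer 6 neurons project mostly to the thalamus, and a thin layer 6b next to the white matter is what is left of the embryonic subplate. Fezf2 and Bcl11b (CTIP2) are transcription factors that set the subcerebral identity of layer 5 neurons, whereas Tbr1 and the corepressor Tle4 mark corticothalamic neurons of layer 6. A dissection that stops short of the white matter, or that takes in other tissue, changes how much of these layers a cortex sample holds. In bulk RNA, fewer cells of a type and less RNA of that gene per cell cannot be told apart. Several of the 10 are not confined to deep cortex: Bcl11b and Crym are also known from the striatum, and Tbr1 from projection neurons of the olfactory bulb.

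On GRCm38 the layer 6b genes were Cplx3 (ENSMUSG00000039714, chr9:57599992-57606281, minus strand) and Nxph4 (ENSMUSG00000040258, chr10:127525473-127534559, minus). The layer 6 genes were Tle4 (ENSMUSG00000024642, chr19:14448150-14598051, minus), Tbr1 (ENSMUSG00000035033, chr2:61802930-61814114, plus), Rprm (ENSMUSG00000075334, chr2:54084093-54085552, minus) and Syt6 (ENSMUSG00000027849, chr3:103575231-103645569, plus). The layer 5 genes were Fezf2 (ENSMUSG00000021743, chr14:12342094-12348189, minus), Bcl11b (ENSMUSG00000048251, chr12:107910403-108003602, minus), Etv1 (ENSMUSG00000004151, chr12:38779380-38870484, plus) and Crym (ENSMUSG00000030905, chr7:120186380-120202111, minus). All 10 are protein-coding, and Rprm has 1 exon. Syt6 shares 505 exon bases, 8.67% of its exon length, with Atg4a-ps, annotated as protein-coding, on the other strand. The strand setting of the authors' counting is not given in the sources used here, so reads of that stretch cannot be told apart.

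Promoter sequences of RefSeq (GRCm38.p6) were on hand for 8 of the 10 genes. The pair shown is Cplx3, the member with the smallest p-value between genotypes, and Rprm, which was far below WT in both of the libraries with the lowest deep layer levels. Each run is the 250 bases directly before the gene's start, read on the gene's strand, Cplx3 from chr9:57606282-57606531 and Rprm from chr2:54085553-54085802, both minus strand. Capitals mark a CCAAT box (CCAAT) in Cplx3 and a GC box (GGGCGG) in Rprm, each read on the other strand.
Cplx3: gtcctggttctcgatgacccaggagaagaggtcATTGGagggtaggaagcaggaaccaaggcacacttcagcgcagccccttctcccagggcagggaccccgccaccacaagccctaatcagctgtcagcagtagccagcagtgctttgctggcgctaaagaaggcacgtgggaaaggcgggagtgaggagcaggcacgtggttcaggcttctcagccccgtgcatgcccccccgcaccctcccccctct
Rprm: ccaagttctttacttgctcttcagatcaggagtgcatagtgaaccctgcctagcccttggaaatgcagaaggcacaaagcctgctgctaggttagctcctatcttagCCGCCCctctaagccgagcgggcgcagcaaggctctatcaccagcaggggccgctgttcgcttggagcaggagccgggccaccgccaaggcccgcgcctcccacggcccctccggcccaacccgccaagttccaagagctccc
Both were rich in G and C, 62.8% in Cplx3 and 62.4% in Rprm, against a median of 52.4% over 32536 promoters of the same length. The CCAAT box, on either strand, was present in 33.8% of those promoters and the GC box in 33.0%. The T-box core (GGTGTGA), the motif bound by Tbr1 and its relatives, was in 3.33% of all promoters and in these windows of none of the 8 genes, which says only that those letters are not there.

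The libraries held 28830376 to 46318461 counts each, and 21248 genes passed the filter on low counts, with all 10 deep layer genes among them. Differences were tested with edgeR's quasi-likelihood test in 1 model over the 4 genotypes, with Benjamini-Hochberg adjustment over all 21248 genes, and a gene was called at an adjusted p under 0.05. Tmem106b RNA ranged from 183.0 to 193.5 CPM (counts scaled to library size) in WT, from 176.8 to 194.1 in TMEM106B-/- and from 178.6 to 215.7 in the combined genotype. It was not called in any of the 3 comparisons with WT, so the RNA does not check the TMEM106B-/- labels, and every direction below rests on those labels. Markers of excitatory neurons, summed over 10 genes, were between 5407 and 6848 CPM in every library. This shows tissue with excitatory neurons, and it does not check the borders of the dissected cortex or exclude neighbouring tissue.

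In WT, the level per exon length, in RPKM (CPM per kilobase of exon), was highest for Tbr1, at 34.7 ± 3.51 (SD, n = 5). Rprm followed at 16.6 ± 1.45, Tle4 at 15.5 ± 0.71 and Fezf2 at 15.3 ± 2.05 RPKM, a trio whose means lie within about 1 SD of each other. Bcl11b stood at 12.8 ± 1.67, Crym at 11 ± 1.90 and Etv1 at 10.0 ± 0.47 RPKM, again with neighbours inside their spread. Syt6 was lower, at 4.88 ± 0.50 RPKM, and the layer 6b genes were the lowest, Cplx3 at 3.42 ± 0.55 and Nxph4 at 1.42 ± 0.35 RPKM. The spread between WT libraries was widest for Nxph4, with a coefficient of variation of 24.4%, and narrowest for Tle4, at 4.59%.

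Cplx3 was lower in TMEM106B-/- cortex than in WT, and it was also lower in the combined genotype. Cplx3 encodes a complexin, a protein that regulates the fusion of synaptic vesicles, and in cortex it marks layer 6b. In WT the 5 libraries read 11.99, 9.96, 9.55, 11.3 and 7.79 CPM. In TMEM106B-/- they read 2.89, 6.11, 5.08, 4.56 and 4.24 CPM. Every TMEM106B-/- library lay below the lowest WT library. Cplx3 fell by 1.15 ± 0.21 (SE) on the log2 scale, 2.22-fold, with an edgeR adjusted p of 0.00234. Leaving out any 1 library kept the call, with adjusted p-values between 0.00107 and 0.00866. With scores of striatum and meninges markers in the model, the difference was -0.69 and the call was lost (edgeR adjusted p = 0.257). The meninges score itself differed between the genotypes, so that model cannot tell tissue and genotype apart.

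In the combined genotype Cplx3 read 6.54, 4.05, 3.97, 6.29 and 8.21 CPM, with 4 of 5 libraries below the lowest WT library. The fall against WT was 0.80 ± 0.20 (SE) on the log2 scale, 1.74-fold, with an edgeR adjusted p of 0.0299. This call was lost on leaving out any 1 of 7 libraries: WT 1 (adjusted p = 0.0635), WT 2 (0.056), WT 3 (0.0552), WT 4 (0.0698), combined 2 (0.0608), combined 3 (0.0769) or combined 4 (0.0593). In TDP-43Q331K the lowest, median and highest Cplx3 values were 6.01, 7.27 and 9.86 CPM, overlapping WT. The log2 difference from WT there was -0.41 ± 0.19, with an unadjusted p of 0.0459 and an edgeR adjusted p of 0.9999, and all 6 libraries were below the WT mean.

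Nxph4 encodes a neurexophilin, a secreted ligand of neurexins, and is the other layer 6b marker. It was the least abundant of the 10, with 13 to 103 counts per library. The WT libraries read 2.73, 2.38, 2.14, 3.11 and 1.58 CPM. TMEM106B-/- libraries read 0.811, 1.53, 1.79, 0.673 and 0.281 CPM, so 4 of 5 were below the lowest WT library and TMEM106B-/- 3 was within the WT range. Nxph4 fell by 1.29 ± 0.36 (SE) on the log2 scale, 2.44-fold, with an edgeR adjusted p of 0.0412. The call was close to the threshold and was lost on leaving out any 1 of 10 libraries: WT 1 (adjusted p = 0.0801), WT 2 (0.074), WT 3 (0.067), WT 4 (0.106), TDP-43Q331K 1 (0.0521), TDP-43Q331K 4 (0.0502), TMEM106B-/- 1 (0.106), TMEM106B-/- 4 (0.0959), TMEM106B-/- 5 (0.0814) or combined 4 (0.0528). The difference was -1.03 without TMEM106B-/- 5, the lowest library.

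Nxph4 in the combined genotype read 2.05, 1.68, 0.603, 1.52 and 1.62 CPM, all below the WT mean and 2 below the lowest WT library. The log2 difference from WT, -0.68 ± 0.35, did not pass (edgeR adjusted p = 0.263). In TDP-43Q331K Nxph4 ran from 1.09 to 2.57 CPM with a median of 1.99, across the WT range.

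**Figure D1:**
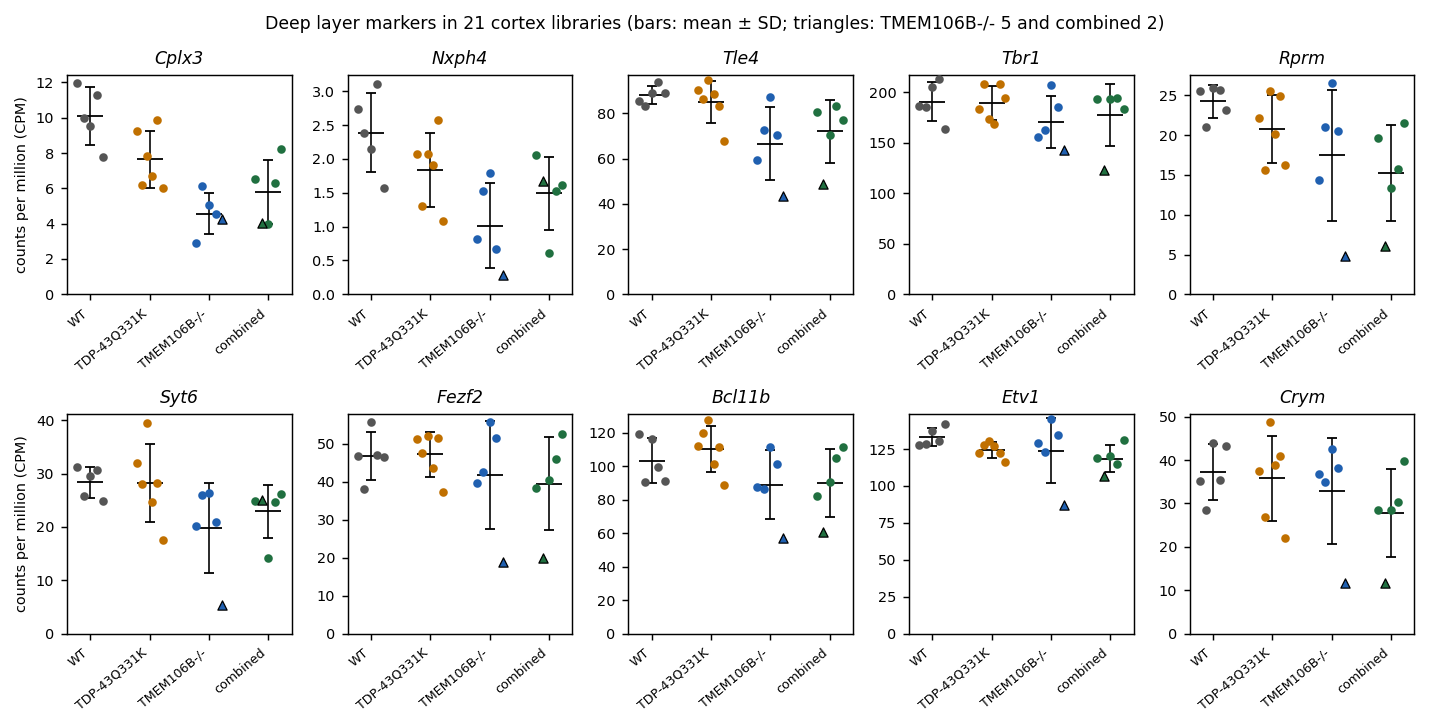
Level of each deep layer gene, in CPM, for every cortex library by genotype; points are libraries, bars are the mean ± SD, triangles are TMEM106B-/- 5 and combined 2, and each y axis starts at 0. Cplx3 in TMEM106B-/- (2.89 to 6.11 CPM) lies wholly below WT (7.79 to 11.99 CPM), and the triangles sit at the bottom of most other panels.

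The falls of Cplx3 and Nxph4 given above were the only edgeR calls among the 10 genes. In TMEM106B-/- against WT, 2 of 10 passed and both were lower, where 507 of 21248 tested genes (2.39%) were called lower and 590 (2.78%) higher. In the combined genotype against WT, 1 of 10 passed, with 501 genes (2.36%) called lower and 537 (2.53%) higher over the table. No member passed in the combined genotype against TDP-43Q331K, where 128 genes (0.602%) were called lower and 170 (0.8%) higher.

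For TDP-43Q331K against WT, the combined genotype against TMEM106B-/-, and the interaction, meaning the TMEM106B-/- difference in the TDP-43Q331K background minus that in WT, the count over all 21248 genes was 0 (0%) with edgeR. At an unadjusted p under 0.05 those comparisons held 1036, 1053 and 972 genes. At an adjusted p under 0.05, the first of them held 3 genes by DESeq2 and 11 by limma-voom. The interaction was 0.76 ± 0.29 for Cplx3 (unadjusted p = 0.0145) and 0.99 ± 0.50 for Nxph4 (unadjusted p = 0.0586) on the log2 scale, each with an adjusted p of 0.999. Directly between the combined genotype and TMEM106B-/-, the log2 difference was 0.36 ± 0.21 for Cplx3 and 0.61 ± 0.37 for Nxph4, and neither passed (edgeR adjusted p = 0.971 each).

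All 10 genes had a negative log2 difference in TMEM106B-/- against WT, with a median of -0.31 against 0.01 over all tested genes. The same held for the combined genotype against WT, with a median of -0.30 against 0.01. These comparisons share the WT libraries. The 10 genes were chosen with earlier results of these data known and vary together between libraries. Their shared direction is therefore a description and not 10 separate results. For the combined genotype against TDP-43Q331K, all 10 were negative as well, with a median of -0.29, and in TDP-43Q331K against WT 8 were negative, with a median of -0.05. With a surrogate variable in the model, 5 of the 10 were positive in TMEM106B-/- against WT and 8 in the combined genotype against WT, so the shared direction depends on the model. That variable was estimated from these same libraries, so it can take up variation that these genes share between libraries. DESeq2 and limma-voom turned no sign in these comparisons with WT.

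**Figure D2:**
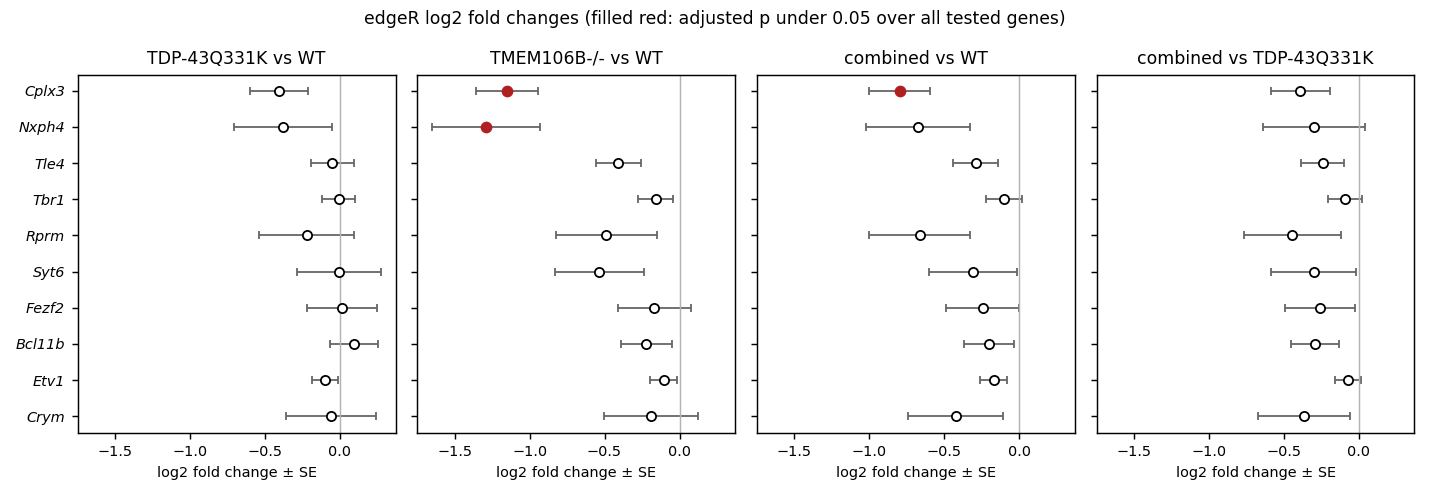
edgeR log2 fold changes with their SE for the 10 deep layer genes in 4 comparisons; filled red points had an adjusted p under 0.05 over all tested genes. Cplx3 and Nxph4 lie farthest to the left in TMEM106B-/- against WT (-1.15 and -1.29), and TDP-43Q331K against WT has no filled point.

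Among the layer 6 genes, none passed in any comparison. Tle4, a Groucho-family corepressor, came nearest. Its libraries read 85.5, 83.3, 89.1, 93.9 and 89.0 CPM in WT and 59.6, 72.5, 87.2, 70.2 and 43.7 CPM in TMEM106B-/-, with only TMEM106B-/- 3 inside the WT range. The log2 difference was -0.41 ± 0.15 (edgeR adjusted p = 0.137), and it passed, at -0.52 with an adjusted p of 0.0397, when TMEM106B-/- 3 was left out. Tle4 in the combined genotype read 80.5, 48.8, 70.6, 83.2 and 77.2 CPM, each below the lowest WT library, by less than 1 CPM for combined 4. That difference, -0.29 ± 0.15, did not pass (edgeR adjusted p = 0.271), although the ranges do not overlap. In TDP-43Q331K Tle4 ran from 67.9 to 94.6 CPM with a median of 87.3.

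Rprm, which encodes Reprimo and is used as a layer 6 marker, read 25.5, 21.01, 25.9, 25.6 and 23.2 CPM in WT. It read 14.3, 21.1, 26.5, 20.5 and 4.85 CPM in TMEM106B-/- and 19.6, 6.06, 13.4, 15.7 and 21.6 CPM in the combined genotype. The lowest libraries of the 2 groups were TMEM106B-/- 5 and combined 2. In all, 3 of 5 TMEM106B-/- libraries and 4 of 5 combined libraries lay below the lowest WT library, while TMEM106B-/- 3 was above all of WT. The log2 differences from WT were -0.49 ± 0.34 and -0.66 ± 0.34, neither of which passed (edgeR adjusted p = 0.472 and 0.265). TDP-43Q331K ran from 15.7 to 25.6 CPM with a median of 21.2.

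Syt6, a synaptotagmin and layer 6 marker, read 31.3, 25.8, 29.5, 30.7 and 24.9 CPM in WT. In TMEM106B-/- it read 20.1, 25.97, 26.4, 20.97 and 5.45 CPM, and in the combined genotype 24.9, 25.03, 14.1, 24.7 and 26.1 CPM. The lowest library was TMEM106B-/- 5 in the first group but combined 3, not combined 2, in the second. The log2 differences from WT, -0.54 ± 0.30 and -0.31 ± 0.30, did not pass (edgeR adjusted p = 0.35 and 0.594). In TDP-43Q331K the values ran from 17.5 to 39.5 CPM with a median of 28.1.

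Tbr1, the T-box factor of early-born deep layer neurons, had the smallest log2 differences of the layer 6 genes. It read 186, 185, 205, 213 and 163 CPM in WT and 156, 162, 207, 186 and 142 CPM in TMEM106B-/-. The combined genotype read 193.7, 122.9, 193.2, 194.2 and 183.1 CPM, with 4 libraries close together inside the WT range and combined 2 apart. The log2 differences from WT were -0.16 ± 0.12 and -0.10 ± 0.12 (edgeR adjusted p = 0.51 and 0.666), and the second was 0.01 without combined 2. TDP-43Q331K ran from 168.0 to 208.4 CPM with a median of 189.1.

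None of the layer 5 genes passed in any comparison. Fezf2 read 46.7, 38.0, 55.7, 46.9 and 46.5 CPM in WT, 39.7, 42.7, 55.8, 51.5 and 18.97 CPM in TMEM106B-/- and 38.4, 20.0, 40.6, 45.9 and 52.7 CPM in the combined genotype. Apart from TMEM106B-/- 5 and combined 2, every library of the latter 2 groups was within the WT range or just above its top. The log2 difference was -0.17 ± 0.24 in TMEM106B-/- and turned to 0.02 without TMEM106B-/- 5. TDP-43Q331K ran from 37.3 to 52.1 CPM with a median of 49.4.

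Bcl11b read 119, 90.9, 116, 99.9 and 91.1 CPM in WT, 87.6, 86.5, 112, 101 and 57.2 CPM in TMEM106B-/-, and 82.6, 60.6, 90.5, 105 and 112 CPM in the combined genotype. Its log2 differences from WT were -0.22 ± 0.17 and -0.20 ± 0.17, and the ranges overlapped. In TDP-43Q331K it ran from 89.0 to 127.9 CPM with a median of 111.9, and the difference from WT was 0.09 ± 0.16.

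Crym, a thyroid hormone binding protein, read 35.2, 28.6, 44.0, 35.4 and 43.3 CPM in WT. TMEM106B-/- read 36.7, 34.9, 42.5, 38.2 and 11.6 CPM, so that 4 libraries lay inside the WT range and TMEM106B-/- 5 far below it. The combined genotype read 28.6, 11.6, 28.6, 30.3 and 39.7 CPM. The log2 difference in TMEM106B-/- was -0.19 ± 0.32 (edgeR adjusted p = 0.804), 0.03 without TMEM106B-/- 5, and 0.57 with an adjusted p of 0.0342 when a surrogate variable was in the model. The TDP-43Q331K values ran from 21.98 to 48.8 CPM with a median of 38.1.

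Etv1 (ER81), an ETS factor of layer 5 projection neurons, read 128, 129, 138, 130 and 142 CPM in WT. It read 129, 123, 145, 134 and 87.1 CPM in TMEM106B-/- and 119, 106, 120, 115 and 131 CPM in the combined genotype. In the combined genotype, 4 of 5 libraries, at 106 to 120 CPM, were below the lowest WT library, at 127.7 CPM. The log2 difference there was -0.17 ± 0.09 (edgeR adjusted p = 0.271), and it passed, at -0.18 with an adjusted p of 0.0418, when TMEM106B-/- 5 was left out of the shared fit. TDP-43Q331K ran from 115.9 to 130.5 CPM with a median of 124.9.

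The genes varied together from library to library. TMEM106B-/- 5 was the lowest of all 21 libraries for 7 of the 10 genes and among the 3 lowest for 9. Relative to the WT median it held 11.8% of Nxph4, 18.5% of Syt6, 18.98% of Rprm, 32.8% of Crym, 40.7% of Fezf2 and 76.6% of Tbr1. Combined 2 was the lowest for 2 genes and among the 3 lowest for 8. It held 23.7% of the WT median of Rprm, 32.7% of Crym and 42.8% of Fezf2, but 84.9% of Syt6 and 70.7% of Nxph4. In TMEM106B-/- 5 and combined 2, Cplx3 stood at 42.6% and 40.6%, Tle4 at 49.0% and 54.8%, and Bcl11b at 57.3% and 60.7%. These 2 libraries thus shared low Rprm, Crym, Fezf2, Cplx3, Tle4 and Bcl11b and differed in Syt6 and Nxph4. TDP-43Q331K 6 ranked 5 from the lowest by mean log2 level of the 10 genes (-0.49 against the WT mean). It was among the 3 lowest libraries for 3 genes. The coefficient of variation was larger than in WT for all 10 genes in both groups that hold TMEM106B-/- 5 or combined 2. The SD was not larger throughout, at 1.18 CPM for Cplx3 in TMEM106B-/- against 1.63 CPM in WT. The coefficient of variation of Rprm was 8.73% in WT, 47.4% in TMEM106B-/- and 39.7% in the combined genotype, and that of Syt6 was 10.3%, 42.9% and 21.6%. In TDP-43Q331K it was 20.4% for Rprm and 25.9% for Syt6, also above WT. For Fezf2, Bcl11b, Tbr1 and Etv1 it was below WT there. TMEM106B-/- 5 was also the most deeply sequenced cortex library, at 46318461 counts.

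Across the 21 libraries, Pearson's r between log2 CPM of the members ran from 0.34 to 0.94 over the 45 pairs, with a median of 0.73. Taken as deviations from the genotype means, it ran from 0.13 to 0.94 with a median of 0.67. Without TMEM106B-/- 5 and combined 2, the libraries farthest from the rest on these genes, the median dropped to 0.48 and the range was -0.25 to 0.88, with 43 of 45 pairs positive. These values are a description over libraries that share genotypes, and the labels do not say which were dissected together. The closest partner of Fezf2 was Crym (0.94), that of Bcl11b and of Rprm was Fezf2 (0.93 each), that of Tle4 was Rprm (0.91), that of Etv1 was Crym (0.86), that of Tbr1 was Fezf2 (0.76), that of Syt6 was Nxph4 (0.87) and that of Cplx3 was Nxph4 (0.78). Without those libraries the layer 6b pair Cplx3 and Nxph4 stood at 0.88. Cplx3 then stood at 0.75 with Tle4, 0.71 with Rprm and 0.70 with Syt6, and at 0.30 with Fezf2 and 0.19 with Crym. Those values still hold the differences between genotypes. As deviations from the genotype means over the 21 libraries, Cplx3 stood at 0.59 with Nxph4, 0.55 with Rprm and 0.51 with Tle4. On that measure it stood at 0.44 with Fezf2, 0.39 with Crym and 0.38 with Syt6, so the order was not the same.

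**Figure D3:**
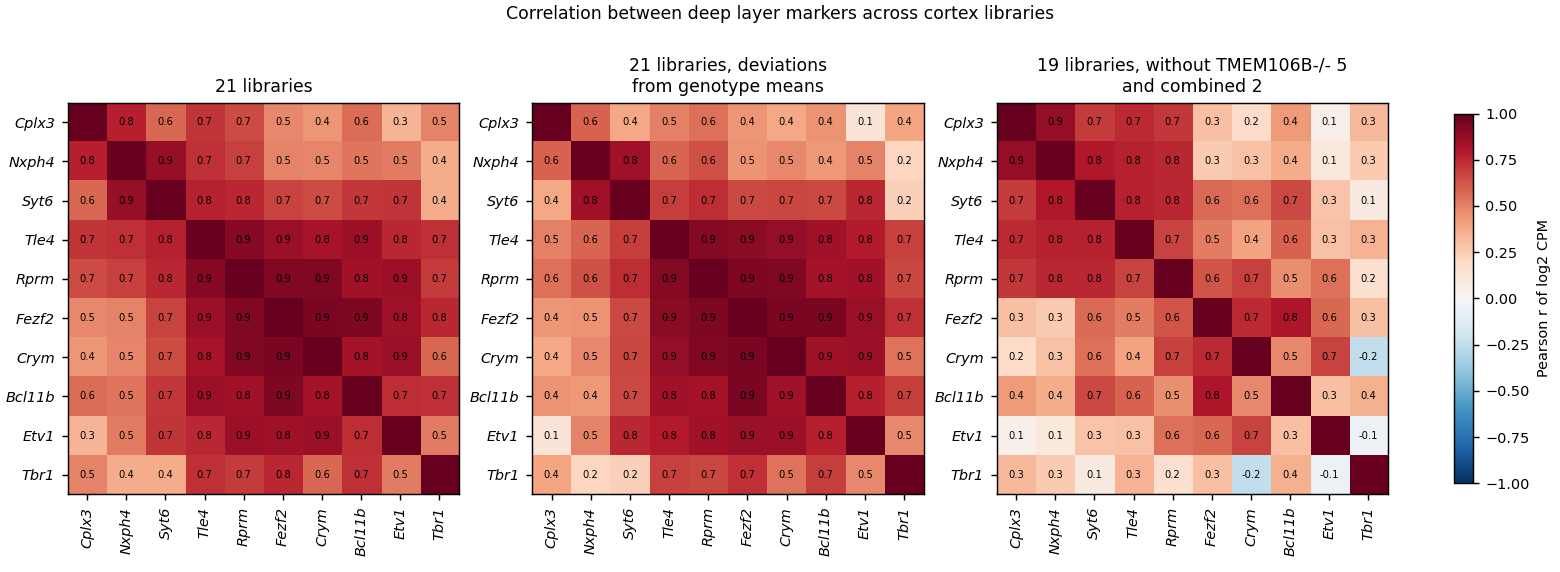
Pearson's r of log2 CPM between the 10 genes across all 21 cortex libraries, across the same libraries as deviations from genotype means, and across 19 libraries without TMEM106B-/- 5 and combined 2; colours run from -1 to 1. The median over 45 pairs goes from 0.73 to 0.67 and 0.48, and Cplx3 with Nxph4 reaches 0.88 in the last panel.

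Of 10963 genes with a mean log2 CPM of at least 3, the one whose pattern over the 21 libraries was most like the mean of the 10 was Sema5a, a semaphorin, with r = 0.98. Spon1 (0.97), Gm40518 (0.97), Nxph3 (0.97), Zfpm2 (0.96), Igsf21 (0.96), Glra2 (0.96) and Grik3 (0.95) followed. Zfpm2 was also in the list of other deep layer genes, and Nxph3 is a neurexophilin like Nxph4. Nxph3 ranged from 19.6 to 29.2 CPM in WT, from 5.54 to 27.8 CPM in TMEM106B-/- and from 4.89 to 24.9 CPM in the combined genotype. None of the 8 passed in TMEM106B-/- or in the combined genotype against WT. The genes most opposite in pattern were Maf (-0.93), Slc25a37 (-0.92), Abcb1a (-0.90), the P-glycoprotein of the blood-brain barrier, and Ildr2 (-0.90), and of these Slc25a37 was called higher in TMEM106B-/- (log2 difference 0.23, edgeR adjusted p = 0.0369).

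A further 24 deep layer genes were measured beside the 10. In TMEM106B-/- against WT, 2 of 24 passed as lower and 1 as higher, with a median of -0.14. Over all tested genes, 2.39% were called lower and 2.78% higher in that comparison. The lower ones were Ctgf (Ccn2), a secreted matricellular protein that marks layer 6b, at -1.04 ± 0.24 (adjusted p = 0.0177), and Sema3e, a semaphorin, at -0.37 ± 0.07 (adjusted p = 0.00274). Ctgf read 15.9 to 24.0 CPM in WT and 6.61 to 14.5 CPM in TMEM106B-/-, with no overlap. Osr1 was higher, at 0.92 ± 0.23 (adjusted p = 0.0194), from 0.990 to 2.25 CPM in WT to 2.03 to 3.90 CPM. All of these are edgeR values adjusted over all genes.

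Against WT, the combined genotype had 1 of 24 lower, Sema3e at -0.26 ± 0.07, and 2 higher, Osr1 at 0.84 ± 0.23 and Nr4a2 at 1.26 ± 0.25. Over all tested genes, 2.36% were called lower and 2.53% higher. Nr4a2 (Nurr1), a nuclear receptor found in layer 6b and claustrum and also an immediate early gene, thus moved opposite to Cplx3. It read 5.63 to 16.0 CPM in WT and 14.5 to 30.6 CPM in the combined genotype. Nr4a2 was also the 1 of 24 that passed against TDP-43Q331K, at 1.21 ± 0.23, where 0.8% of all tested genes were called higher. Ctgf ran from 7.40 to 18.3 CPM in the combined genotype, a log2 difference from WT of -0.67 ± 0.24 that has the sign of Cplx3 and did not pass (edgeR adjusted p = 0.113).

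Of 18 genes of the upper layers, 4 were called higher and 0 lower in TMEM106B-/- against WT, where 2.78% of all tested genes were called higher, and 2 of the 18 had a negative log2 difference. The 4 were Otof at 0.61 ± 0.12, Stard8 at 0.45 ± 0.10, Rasgrf2 at 0.41 ± 0.09 and Calb1 at 0.28 ± 0.07 on the log2 scale, with a list median of 0.28. In the combined genotype 3 were higher, Rasgrf2 at 0.44 ± 0.09, Stard8 at 0.44 ± 0.10 and Mdga1 at 0.63 ± 0.17, with a median of 0.33. Against TDP-43Q331K only Rasgrf2 passed, at 0.44 ± 0.09. Over all tested genes, 2.53% and 0.8% were called higher in these comparisons. Rasgrf2, a guanine nucleotide exchange factor and layer 2/3 marker, ran from 223.8 to 268.9 CPM in WT and from 282.5 to 391.8 CPM in TMEM106B-/-. Summed over the 18 genes, WT held 1337 to 1506 CPM, TDP-43Q331K 1221 to 1628, TMEM106B-/- 1507 to 2202 and the combined genotype 1533 to 2043 CPM. The same libraries stood at the ends of both lists: TMEM106B-/- 5, combined 2 and combined 3 were the lowest 3 by mean log2 level of the 10 genes (-1.45, -0.94 and -0.62 against the WT mean) and the highest 3 by mean log2 level of the upper layer genes (0.57, 0.47 and 0.30).

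Markers of other cells and tissue in or next to the cortex differed as well. Oligodendrocyte genes are abundant in white matter beneath layer 6b. All 12, with medians of -1.23 and -0.94, were called lower in TMEM106B-/- and the combined genotype against WT (2.39% and 2.36% of all tested genes). Their sum was 3130 to 3543 CPM in WT, 2094 to 3386 in TDP-43Q331K, 1116 to 1596 in TMEM106B-/- and 1207 to 2697 CPM in the combined genotype. No gene of this list was at 0 in any library.

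The meninges cover the pial surface next to the upper layers. Of 13 meninges genes, 10 were called higher in TMEM106B-/- and 2 in the combined genotype (2.78% and 2.53% of all tested genes). They summed to 21.6 to 73.4 CPM in WT, 38.7 to 97.3 in TDP-43Q331K, 53.6 to 212.0 in TMEM106B-/- and 77.95 to 161.8 CPM in the combined genotype, and none was at 0 in any library. Striatum genes, 16 in the list with 15 tested, had medians of -0.66 and -0.49 in these comparisons, and none was called. The 15 tested genes summed to 249.6 to 370.8 CPM in WT, 248.0 to 597.1 in TDP-43Q331K, 240.2 to 323.8 in TMEM106B-/- and 246.1 to 314.3 CPM in the combined genotype. Isl1, the listed gene that was not tested, was at 0 in 10 libraries. The part of oligodendrocyte, meninges and striatum tissue in the differences of Cplx3 and Nxph4 was not tested. Neither gene passed in the model with striatum and meninges scores, which holds no oligodendrocyte score. The mean meninges score was itself 1.39 above WT in TMEM106B-/- and 1.25 above WT in the combined genotype. That model therefore cannot tell tissue and genotype apart.

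Olfactory bulb genes, 7 in the list with 6 tested and summed, reached 45.0 and 33.5 CPM in TMEM106B-/- 1 and 2. The sums were 36.4, 73.0 and 18.6 CPM in combined 1, 2 and 4. They were 3.92 to 6.08 CPM in WT and 4.48 to 9.52 CPM in TDP-43Q331K. Of these genes, Eomes was at 0 in 2 libraries. TMEM106B-/- 5, the library lowest in deep layer genes, held 2.66 CPM of these genes, and combined 2, the next lowest, held 73.0 CPM; the part of this tissue in the deep layer levels was not tested. Pan-neuronal genes had medians of 0.00 and 0.03 in TMEM106B-/- and the combined genotype against WT, and excitatory neuron genes 0.09 and 0.07, with 0 called.

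**Figure D4:**
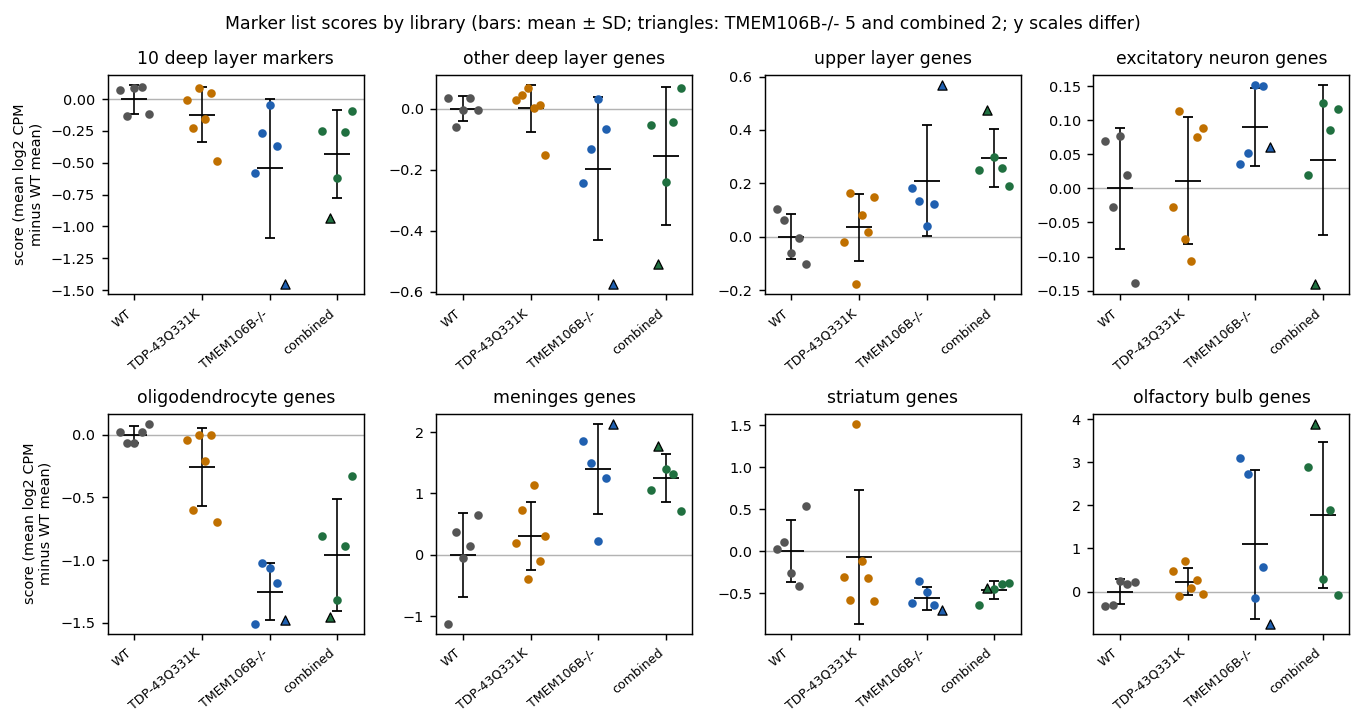
Mean log2 CPM of each marker list minus its WT mean, for every cortex library by genotype, with mean ± SD; triangles are TMEM106B-/- 5 and combined 2, and the y scales differ between panels. The triangles are the lowest for the 10 deep layer markers (-1.45 and -0.94) and the highest for upper layer genes (0.57 and 0.47), and oligodendrocyte scores of TMEM106B-/- lie between -1.51 and -1.02.

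Removing the low libraries changed which calls were made. Without TMEM106B-/- 5 and combined 2, a choice made after seeing the data, Cplx3 in TMEM106B-/- was the only deep layer gene called. Cplx3 in the combined genotype was then at -0.70 (edgeR adjusted p = 0.0616) and Nxph4 in TMEM106B-/- at -1.03 (adjusted p = 0.0848). Fezf2 and Crym in TMEM106B-/- stood at 0.02 and 0.03.

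The liver libraries of the same study, 4 of each genotype, served as a tissue without cortical neurons. Fezf2 had 0 counts in all 16, and Tbr1, Nxph4, Cplx3, Rprm and Syt6 had at most 3 counts in any library among totals of 50492607 to 74147763 counts. Tle4, which is also known outside the brain, had 300 to 663 counts, up to 12.3 CPM. Bcl11b, Etv1 and Crym stayed under 1 CPM, with 4 to 31, 19 to 54 and 11 to 67 counts.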

How the data were processed

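Directional libraries were made from Trizol-extracted total RNA with the NEBNext Ultra II Directional kit, per the labels' protocols. FastQC, Trim Galore, cutadapt, GRCm38 and mm10 are named in the submitters' processing notes. For aligner, counter and strand setting, no source used here names any. The authors deposited raw counts per Ensembl gene. The 55536 cortex identifiers all matched GENCODE M21. Of the cortex columns, 1 matched no sample and was not used. Counts were analysed with edgeR 4.0.16 in R 4.3.3: filterByExpr (minimum count 10, minimum total 15), TMM scaling, robust quasi-likelihood fit, Benjamini-Hochberg adjustment, threshold 0.05. CPM are TMM-scaled, RPKM use the summed exon length, log2 CPM use a prior count of 2, and the SE is the log2 difference over the root of the F statistic. The edgeR test was tried on counts simulated separately for each gene. Such counts hold no library in which many genes are low together, so they do not check calls in that setting. Libraries of a group differed beyond counting noise in all 45 pairs (chi-square per degree of freedom 4.86 to 40.8), so none was counted as a duplicate. Depth was 28830376 to 46318461 counts per library, and a gene at few counts is measured less precisely. Alternatives used RLE factors, no filter, DESeq2 1.42.0, limma-voom (limma 3.58.1), only the compared groups, a replicate block, a surrogate variable (sva 3.50.0), tissue scores, and fewer libraries.

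The 10 genes and all lists were chosen with earlier results of these data known. Named genes are the 10, the listed deep and upper layer genes that passed (up to 4 per comparison and direction by p), and the 8 genes most and 4 least like the mean of the 10.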

Additional observations from a re-analysis of the deposited data

Results flagged for a closer look

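Of the 40 sets of values of 1 gene in 1 genotype, 3 held a library far from the others of its group, where chance gives about 1 in 20. Crym in TMEM106B-/- 5 was at 11.6 CPM, with the other 4 at 34.9 to 42.5 CPM. Syt6 in combined 3 was at 14.1 CPM, with the other 4 at 24.7 to 26.1 CPM. Tbr1 in combined 2 was at 122.9 CPM, with the other 4 at 183.1 to 194.2 CPM. Each was the lowest library of its group for that gene.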

How the results depend on the processing

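Of 30 log2 differences (10 genes in 3 comparisons), all kept their direction and side of the threshold with RLE factors, DESeq2 and limma-voom. Cplx3 in TMEM106B-/- against WT passed in 30 of 31 alternatives, Nxph4 in 14 (adjusted p 0.00875 to 0.598) and Cplx3 in the combined genotype in 18 (0.00299 to 0.499). The cause of the changes below was not tested.

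Members called in TMEM106B-/- against WT were 1 with no filter, only the compared groups, the replicate block, without 4 cortices with extreme tissue markers (WT 1, TDP-43Q331K 3, TMEM106B-/- 5, combined 2) and without TMEM106B-/- 5 and combined 2, 0 with striatum and meninges scores, and 1 to 3 with 1 library left out. In the combined genotype against WT they were 0 with no filter, the block, the surrogate variable, the scores and both library removals, and 0 to 2 with 1 library left out.

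Over all genes, TMEM106B-/- against WT (main 1097) gave 1689 with limma-voom, 614 with the surrogate variable, 15 with the scores and 664 to 1394 with 1 library left out. The combined genotype against WT (main 1038) gave 1599 with DESeq2, 1818 with limma-voom, 675 with the block, 146 with the surrogate variable, 8 with the scores and 422 to 1535 with 1 left out. Against TDP-43Q331K (main 298) it gave 171 with no filter, 820 by DESeq2, 781 by limma-voom, 104 when fitted on the compared groups alone, 122 with the block, 60 with the surrogate variable, 7 with the scores, 131 without the 4 cortices and 53 to 1103 with 1 left out. TDP-43Q331K against WT (main 0) gave 3 by DESeq2, 11 by limma-voom, 2 when fitted on the compared groups alone, 1 with the block, 2 under each library removal and 0 to 1 with 1 left out. The interaction (main 0) gave 2 without the 4 cortices, 1 without the pair and 0 to 1 with 1 left out.

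Signs turned as follows on the log2 scale. With the surrogate variable, TMEM106B-/- against WT gave Bcl11b 0.10, Crym 0.57, Etv1 0.091, Fezf2 0.34 and Rprm 0.22. The combined genotype gave Bcl11b 0.17, Crym 0.44, Etv1 0.064, Fezf2 0.35, Rprm 0.19, Syt6 0.29, Tbr1 0.060 and Tle4 0.093 against WT, and Bcl11b 0.046, Crym 0.45, Etv1 0.14, Fezf2 0.27, Nxph4 0.31, Rprm 0.35, Syt6 0.27, Tbr1 0.047 and Tle4 0.11 against TDP-43Q331K. With the scores, TMEM106B-/- against WT gave Bcl11b 0.20, Crym 0.39, Etv1 0.045, Fezf2 0.31, Rprm 0.23, Syt6 0.0092 and Tbr1 0.0049. The combined genotype gave Bcl11b 0.18, Crym 0.079, Fezf2 0.19, Syt6 0.20 and Tbr1 0.051 against WT, and Crym 0.045, Etv1 0.028, Fezf2 0.065, Nxph4 0.15, Rprm 0.067, Syt6 0.11 and Tbr1 0.013 against TDP-43Q331K. Without the 4 cortices, TMEM106B-/- against WT gave Crym 0.0095 and Fezf2 0.017. Without the pair it gave Crym 0.029 and Fezf2 0.017, and the combined genotype against TDP-43Q331K gave Tbr1 0.0089. With 1 library left out, Fezf2 in TMEM106B-/- ran from -0.29 to 0.018, Crym from -0.30 to 0.030, and Tbr1 in the combined genotype from -0.15 to 0.0053 against WT and from -0.13 to 0.014 against TDP-43Q331K.

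Same-numbered libraries did not deviate together (r from -0.17 to 0.20 over 30 pairs, 4 over 0.1), and 2 of 21 libraries correlated best with their own number. No pairing by number was seen in these values. The labels do not say whether the numbers pair the samples, and this check cannot exclude it. Nxph4, at 13 to 103 counts, is the member that depth limits most.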
